A study of Mus musculus with 6 samples.

Results

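The genes described here encode the activators of plasminogen with their receptor and a broad inhibitor (Plau, Plat, Plaur and Serpine2), and the membrane protease matriptase with its inhibitors (St14, Spint1 and Spint2). All 7 genes were found by their symbols among the 23420 genes of the count table. The 7 were chosen by their known roles and with the difference between sgp53 and sgNTC cells in view, so that difference is given below as a description. No p-value is given for a member in it, and nothing is read from how many members were called. The cells were E1A;HrasG12V mouse embryonic fibroblasts of a mixed 129/Sv-C57BL/6 background, transformed by an adenovirus gene (E1A) together with mutant Ras, and plated 24 h before harvest at 5% oxygen. RNA sequencing covered 3 lines, each as sgp53 cells, made with a guide RNA against p53, and as sgNTC cells, which are p53 wild-type and carry a guide without a target; this gave 6 libraries. By their labels, sgp53 cells are p53 null in lines 1 and 3, whereas in line 2 their p53 is functionally inactive. The same p53 guide was used in all 3 lines, and both groups carry E1A and HrasG12V. Whether a line is 1 clone, or comes from an embryo of its own, is not stated. The library descriptions give lines 2 and 3 a number in common that line 1 does not have, and its meaning is not stated, so these lines may be related.

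Plasminogen circulates as an inactive precursor and is cut to plasmin, a protease that digests fibrin and matrix proteins and activates other proteases. Urokinase (Plau) acts mainly at the cell surface, where it is held by its receptor (Plaur), while tissue plasminogen activator (Plat) acts mainly on fibrin. Serpins such as protease nexin 1 (Serpine2) trap the activators in inactive complexes. Matriptase (St14) is a serine protease anchored in the plasma membrane, known above all from epithelia, and its substrates in vitro include the urokinase precursor. Its activity is held in check by the membrane-bound Kunitz inhibitors HAI-1 (Spint1) and HAI-2 (Spint2).

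Library totals lay between 27503577 and 35860866 counts. Levels are CPM (counts scaled to a common library size), and fold changes are edgeR estimates of sgp53 over sgNTC on the log2 scale. Trp53, the targeted gene, averaged 85.3 ± 23.9 CPM in sgp53 cells and 245 ± 35.9 CPM in sgNTC cells (SD, n = 3 each). The p53 target Cdkn1a had 73.8 to 101 CPM in sgp53 libraries and 647 to 732 CPM in sgNTC libraries. Mdm2, another p53 target, had 128 to 150 CPM in sgp53 libraries and 804 to 1069 CPM in sgNTC libraries. Of the fibroblast markers, Vim averaged 2688 CPM in sgp53 and 3121 CPM in sgNTC cells and Fn1 averaged 4078 CPM in sgp53 and 2938 CPM in sgNTC cells, whereas Lum had 1 count in all libraries together. The collagen markers Col1a1 and Col1a2 were far higher in sgp53 cells and are given further on, with the other fibroblast markers. These are bulk samples, in which fewer cells of a type and less RNA per cell cannot be told apart.

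St14 differed most of the 7 genes. It had 4.06, 6.31 and 1.68 CPM in sgp53 cells of lines 1, 2 and 3, against 55.2, 101 and 58.9 CPM in sgNTC cells of the same lines. Every sgp53 library lay far below every sgNTC library, and sgp53 line 3, with 48 counts, was the lowest. The fitted log2 fold change was -4.14 (SE 0.49), a level 17.6-fold lower in sgp53, and within lines 1, 2 and 3 the log2 difference was -3.74, -3.98 and -5.08. Of all 13044 genes tested, 0.138% had a log2 fold change as low as that of St14 or lower. St14 lies on chromosome 9 of GRCm38 (31089402 to 31131853, minus strand). A processed pseudogene, Gm16071, overlaps its span on the other strand. Whether it overlaps an exon of St14 was not examined, and the strand setting of the counting is not given in the sources used here. Whether the St14 counts hold reads of Gm16071 is therefore not known.

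Both inhibitors of matriptase were lower in sgp53 cells too, by about 2-fold. Spint1 had 35.2, 38.7 and 24.9 CPM in sgp53 lines 1, 2 and 3, against 52.8, 61.6 and 72.4 CPM in sgNTC. Spint2 had 23.2, 28.3 and 13.2 CPM in sgp53 lines 1, 2 and 3, against 41.4, 46.4 and 45.6 CPM in sgNTC. In neither gene did the groups overlap. The log2 fold change was -0.92 (SE 0.19) for Spint1 and -1.04 (SE 0.26) for Spint2. In both genes line 3 had the widest gap, with log2 differences of -1.54 for Spint1 and -1.79 for Spint2, against -0.59 and -0.67 for Spint1 and -0.84 and -0.71 for Spint2 in lines 1 and 2. The 3 matriptase genes kept the same order in sgp53 cells, highest in line 2 and lowest in line 3. Among sgNTC cells line 2 was highest for St14 and Spint2, and line 3 for Spint1.

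**Figure D1:**
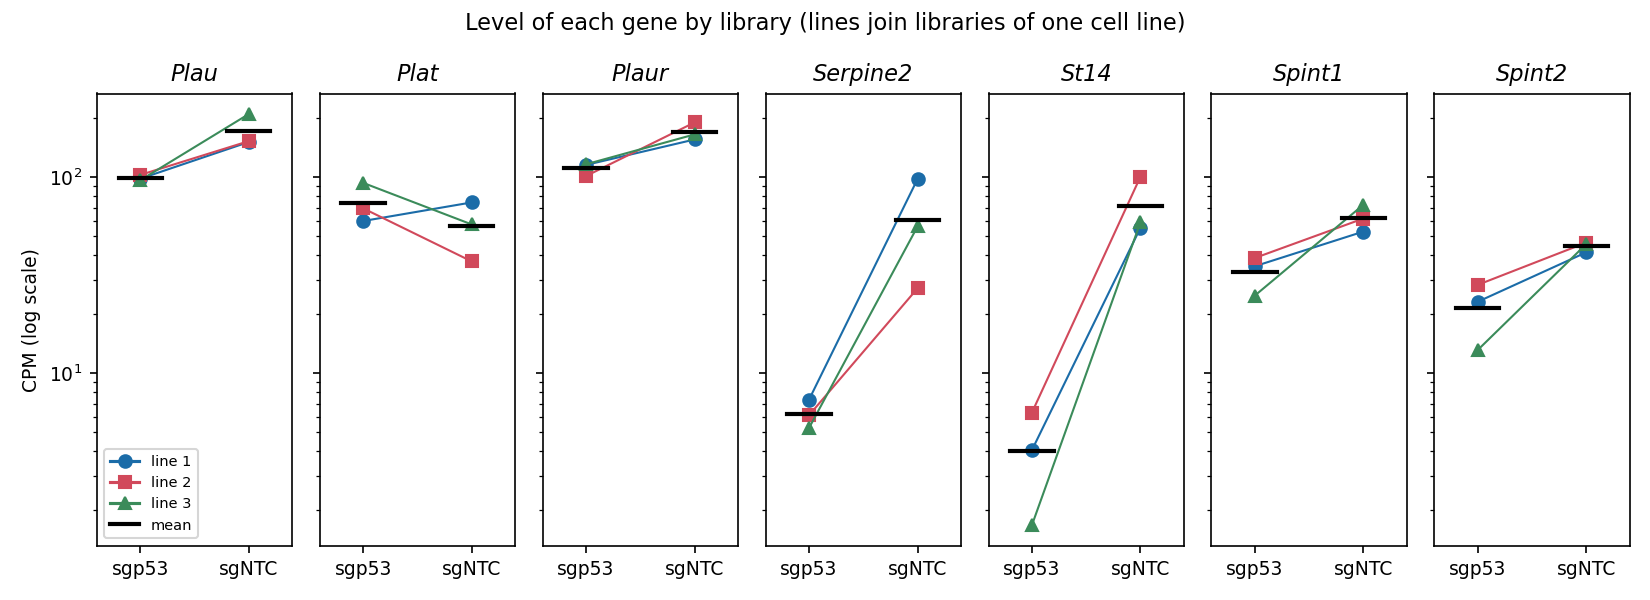
CPM on a log axis for each of the 7 genes, with sgp53 libraries on the left and sgNTC libraries on the right of each panel; coloured lines join the libraries of a cell line and black bars are group means (n = 3). St14 and Serpine2 show the widest gaps, and only in Plat do the lines go both ways, with line 1 lower and lines 2 and 3 higher in sgp53.

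Matriptase RNA was also lower relative to its inhibitors. Levels of different genes were compared as CPM per kilobase of exon, with exon lengths from GENCODE M21. These lengths join the exons of all transcripts of a gene, with 7637 bases for St14, 2767 for Spint1 and 4556 for Spint2. Which transcripts the cells make was not examined, so the size of such ratios and the order of genes by level are uncertain. Per kilobase of exon, St14 stood at 0.0299, 0.0409 and 0.0185 of the sum of Spint1 and Spint2 in sgp53 lines 1, 2 and 3, against 0.257, 0.406 and 0.213 in sgNTC. The highest sgp53 ratio was thus below the lowest sgNTC ratio. The balance between the inhibitors differed far less: the ratio of Spint1 to Spint2 averaged 2.62 ± 0.444 in sgp53 and 2.30 ± 0.274 in sgNTC cells (SD, n = 3 each). The groups overlapped, but within each line the ratio was higher in sgp53, with 2.50, 2.26 and 3.12 in sgp53 lines 1, 2 and 3, against 2.10, 2.18 and 2.61 in sgNTC.

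Matriptase and its inhibitors are epithelial genes, so the markers of epithelial cells are given beside them. Of 14 such markers, 9 had enough counts to be tested; keratin 18 (Krt18) was lower in sgp53, 0 were higher and 8 did not pass the test. The median log2 fold change of the 9 was -1.17, which is the value of Epcam, against -0.01 over all genes tested. It was below 0 in 8 of the 9, all but Cdh1 (0.10). Of the other keratins, Krt8 averaged 0.782 CPM in sgp53 and 1.33 CPM in sgNTC cells, and Krt19 averaged 27.7 CPM in sgp53 and 36.2 CPM in sgNTC cells. The groups overlapped in both, and Krt8 was higher in sgp53 in line 3 (log2 difference 0.90). Krt18 fell to 66.7 ± 23.8 CPM in sgp53 cells, against 415 ± 200 CPM in sgNTC cells (SD, n = 3 each; edgeR adjusted p = 0.0295). The summed level of the 14 markers was 136, 191 and 124 CPM in sgp53 lines 1, 2 and 3, against 636, 725 and 317 CPM in sgNTC, and Krt18 made up most of the sgNTC sums. Epcam, an adhesion protein that matriptase can cut and that is also on the list of matriptase substrates, had 41.0, 33.2 and 25.5 CPM in sgp53 lines 1, 2 and 3, against 54.1, 100.3 and 69.9 CPM in sgNTC (edgeR adjusted p = 0.0528). Cdh1, the epithelial cadherin, had 2.74 to 5.17 CPM in sgp53 and 2.57 to 4.24 CPM in sgNTC cells, and Cldn3, Cldn4, Esrp1, Ovol1 and Rab25 had at most 55 counts in any library. The part of these markers in the St14, Spint1 and Spint2 values was not tested.

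Serpine2, protease nexin 1, was the other gene with a large difference. This serpin inhibits thrombin as well as urokinase and tissue plasminogen activator. It had 7.34, 6.11 and 5.26 CPM in sgp53 lines 1, 2 and 3, against 97.8, 27.1 and 56.1 CPM in sgNTC. The sgp53 libraries lay close together and below all sgNTC libraries, while the sgNTC libraries were far apart. The coefficient of variation was 16.7% in sgp53 and 58.9% in sgNTC, against medians of 8.32% and 8.10% over the 12054 tested genes with a mean of at least 1 CPM. The log2 fold change was -3.27 (SE 0.47), a level 9.67-fold lower in sgp53. Within lines 1, 2 and 3 the log2 difference was -3.72, -2.14 and -3.40, smallest in line 2, where the sgNTC level was lowest. Serpine2 lies on chromosome 1 (79794197 to 79861180, minus strand).

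Urokinase and its receptor were lower in every sgp53 library than in any sgNTC library, by 1.73-fold for Plau and 1.53-fold for Plaur. Plau (chromosome 14, 20836660 to 20843385) had 98.2, 103 and 96.4 CPM in sgp53 lines 1, 2 and 3, against 151, 153 and 210 CPM in sgNTC. Plaur (chromosome 7, 24462484 to 24475968) had 115, 101 and 116 CPM in sgp53, against 156, 190 and 165 CPM in sgNTC. The log2 fold change was -0.79 (SE 0.13) for Plau and -0.62 (SE 0.095) for Plaur. Line 3 had the largest difference in Plau (-1.12) and line 2 the largest in Plaur (-0.91). The ratio of Plau to Plaur per kilobase of exon averaged 0.992 ± 0.111 in sgp53 and 1.12 ± 0.262 in sgNTC cells (SD, n = 3 each). The groups overlapped, and the lines went both ways. The ratio was 0.940, 1.120 and 0.916 in sgp53 lines 1, 2 and 3, against 1.073, 0.888 and 1.404 in sgNTC. It was thus lower in sgp53 in lines 1 and 3 and higher in line 2.

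Plat, tissue plasminogen activator, had no common direction over the lines. It had 59.8, 69.4 and 93.5 CPM in sgp53 lines 1, 2 and 3, against 74.4, 37.2 and 57.4 CPM in sgNTC. The groups overlapped, because sgNTC line 1 exceeded sgp53 lines 1 and 2. The log2 difference was -0.31 in line 1, 0.90 in line 2 and 0.70 in line 3, and the fitted log2 fold change was 0.40 (SE 0.27). The mix of the 2 activators did not overlap between the groups: per kilobase of exon, Plau stood at 4.33, 3.90 and 2.72 times Plat in sgp53 lines 1, 2 and 3, against 5.36, 10.8 and 9.63 times in sgNTC. Plat (chromosome 8, 22757727 to 22782844) and Spint2 were the members not called below.

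**Figure D2:**
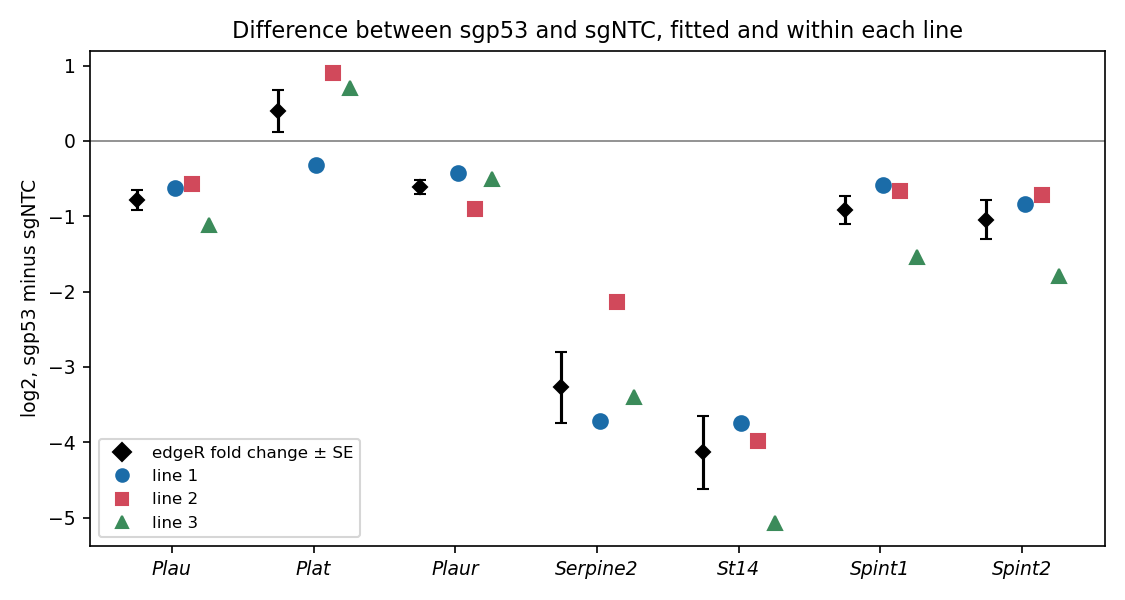
Log2 difference of sgp53 minus sgNTC for each gene: black diamonds are the edgeR fold change with its SE, and coloured symbols the difference in log2 CPM within each line. The 3 symbols of St14 lie between -3.74 and -5.08 and those of Serpine2 between -2.14 and -3.72, and for Plat line 1 lies below 0 and lines 2 and 3 above it.

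RefSeq promoters on GRCm38.p6 were at hand for 4 of the 7 genes (Plaur, Serpine2, Spint1 and Spint2). They were read from 250 bases before the RefSeq start to 10 bases after it, on both strands. For Serpine2 this window (chr1:79858656-79858915) lies inside the span of the gene given above. The AP-1 motif TGANTCA, which Fos and Jun factors bind, was present once each in Plaur and Spint1 and in 7.03% of all 32851 promoters. The promoters of Serpine2 and Spint2 had 0 matches, and these genes were lower in sgp53 cells too. Those of Plaur and Spint1 are shown because they hold this motif. Capitals mark that motif and, in Spint1, the ETS motif GGAAGT, which 20.8% of all promoters hold. The Plaur promoter lies on the plus strand at chr7:24462233-24462492, and that of Spint1 on the plus strand at chr2:119237110-119237369.
Plaur: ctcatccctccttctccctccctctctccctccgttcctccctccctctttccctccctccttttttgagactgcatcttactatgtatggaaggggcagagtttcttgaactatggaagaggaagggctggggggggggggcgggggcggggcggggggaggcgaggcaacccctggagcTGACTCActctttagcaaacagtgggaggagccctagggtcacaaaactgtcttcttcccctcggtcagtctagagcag
Spint1: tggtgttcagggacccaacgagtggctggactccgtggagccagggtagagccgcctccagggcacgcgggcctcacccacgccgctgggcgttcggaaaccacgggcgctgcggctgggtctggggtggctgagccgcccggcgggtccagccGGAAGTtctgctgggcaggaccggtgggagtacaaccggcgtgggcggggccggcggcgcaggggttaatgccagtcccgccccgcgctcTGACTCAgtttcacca
In Plaur the AP-1 match begins 69 bases before the start, and in Spint1 it begins 6 bases before it and ends on the first transcribed base. The Sp1 motif GGGCGG was found in all 4 promoters, and in 33.4% of all promoters. It overlaps neither of the other motifs in the runs shown. The p53 half-site consensus had no match in the 4 windows and one in 7.35% of all promoters. These matches are letters in a window and show no binding.

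In the fit across all genes, 5 of the 7 members were called lower at an adjusted p under 0.05 and 0 were called higher, where 6.45% of all genes tested were called, 3.69% lower and 2.76% higher. The groups did not overlap in 6 of the 7, against 36.8% of all genes tested. All 7 members passed the filter on low counts. Their median log2 fold change was -0.92, against -0.01 over all genes tested. Since this contrast was in view when the members were chosen, nothing is read from these counts. The number called was 2 with the line as a block, 6 with DESeq2 and 4 with limma-voom. It was 0, 1 and 2 without sgp53 line 1, 2 and 3, and 5, 4 and 2 without sgNTC line 1, 2 and 3. Without both libraries of a line it was 0 in each case.

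The order of the 7 genes by level was not the same in both groups. Per kilobase of exon, sgp53 cells had the most RNA of Plaur (42.4 ± 3.21 CPM) and Plau (41.9 ± 1.36 CPM), whose ranges overlapped. Spint1 (11.9 ± 2.59 CPM) and Plat (11.9 ± 2.79 CPM) came next and overlapped too, followed by Spint2 (4.73 ± 1.69 CPM). Serpine2 (0.753 ± 0.126 CPM) and St14 (0.526 ± 0.303 CPM) were lowest, again with overlapping ranges (SD, n = 3 each). In sgNTC cells Plau (72.3 ± 14.1 CPM) and Plaur (65.1 ± 6.80 CPM) led with overlapping ranges, and Spint1 (22.5 ± 3.54 CPM) came next. Spint2 (9.77 ± 0.591 CPM), St14 (9.38 ± 3.30 CPM), Plat (9.03 ± 2.98 CPM) and Serpine2 (7.28 ± 4.29 CPM) followed, each overlapping its neighbour. St14 thus overlapped Spint2 in sgNTC cells, and in sgp53 cells it lay below Spint2 in all 3 libraries. This order depends on the exon lengths used. In CPM, St14 averaged 71.6 in sgNTC cells, above Spint1 (62.2) and Spint2 (44.5), and 4.02 in sgp53 cells, below both.

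Whether the members differed between lines is a question that the choice of members did not use. It was tested with the 2 line terms of a fit that also held the guide. None of the 7 passed (edgeR adjusted p = 0.968 to 0.990), and 0% of the 13044 genes tested were called. At an unadjusted p under 0.05 there were 461 genes, of which St14 was the only member (unadjusted p = 0.0430). A likelihood ratio test in DESeq2 called 79 genes and 0 members. With 2 residual degrees of freedom, this fit did not call the spread of Serpine2 between lines (unadjusted p = 0.114).

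Serpine2 was also lower relative to the proteases that it inhibits. Per kilobase of exon, it stood at 0.0173, 0.0135 and 0.0114 of the sum of Plau and Plat in sgp53 lines 1, 2 and 3, against 0.156, 0.0465 and 0.0692 in sgNTC. The groups did not overlap in this ratio, and the sgNTC lines were further apart than the sgp53 lines.

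**Figure D3:**
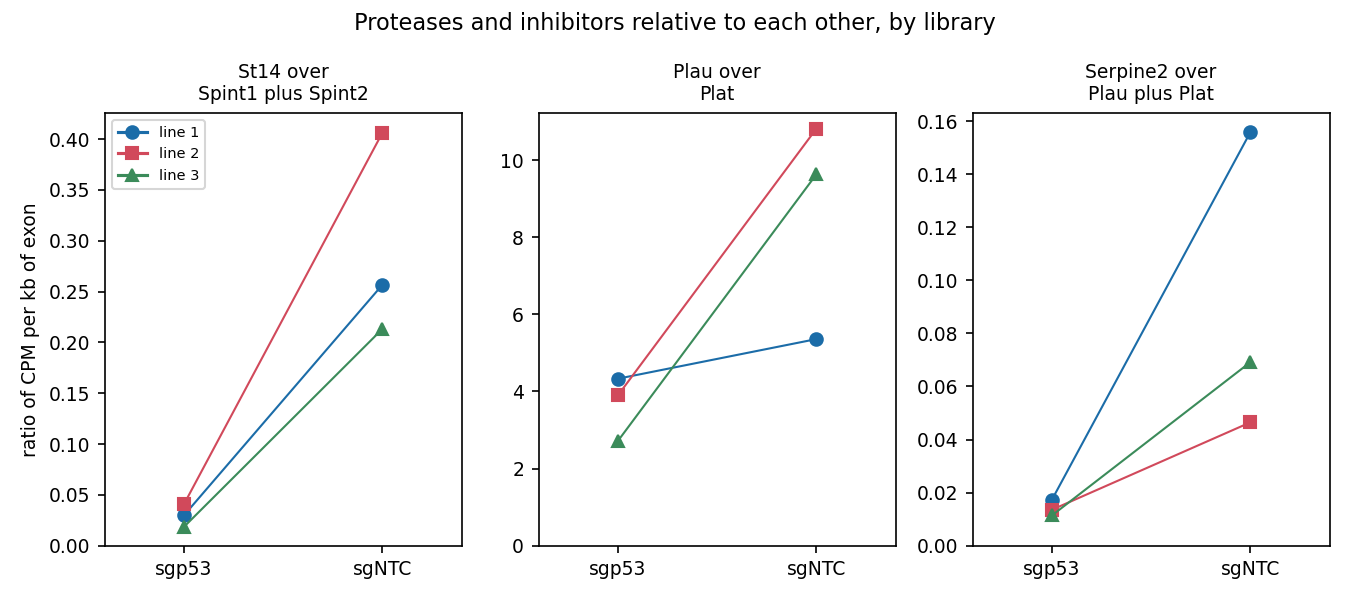
Ratios of CPM per kilobase of exon in each library, with sgp53 on the left and sgNTC on the right of each panel and lines joining the libraries of a cell line; each axis starts at 0. St14 relative to its inhibitors, Plau relative to Plat and Serpine2 relative to the activators are lower in every sgp53 library than in any sgNTC library.

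The other genes of the 2 protease systems were listed from textbook knowledge, and the 41 reported here include 17 with enough counts to be tested. Of these 17, edgeR called 0 higher and 0 lower, with 6 (35.3%) at an unadjusted p under 0.05, against 29% of all genes tested; limma-voom also called 0 and DESeq2 called 3. Of the inhibitors and substrates of the plasminogen system, 4 were tested, and their median log2 fold change was -0.35. The most abundant was Serpinb6a, an intracellular serpin, with 153, 165 and 208 CPM in sgp53 lines 1, 2 and 3, against 175, 243 and 200 CPM in sgNTC. Serpini1, neuroserpin, which inhibits tissue plasminogen activator, had 5.33, 3.92 and 5.30 CPM in sgp53, against 5.92, 8.08 and 6.10 CPM in sgNTC (edgeR adjusted p = 0.192). The groups overlapped in Serpinb6a and not in Serpini1. Plasminogen itself (Plg) had 0 counts in every library, which allows at most 0.0834 to 0.109 CPM per library (3 counts), and Serpina5 and Cpb2 had 0 counts as well; these 3 are named after their values were seen. Limits of this kind cover counting error only.

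Of 7 tested genes for plasminogen binding and clearance, 0 were called; their median log2 fold change was 0.28. The most abundant were Anxa2 and Lrp1. Anxa2, a cell surface protein that binds plasminogen and its tissue activator, had 900, 999 and 1340 CPM in sgp53 lines 1, 2 and 3, against 783, 950 and 941 CPM in sgNTC. Lrp1, the endocytic receptor that clears complexes of activators with serpins, had 825, 691 and 1560 CPM in sgp53, against 471, 858 and 484 CPM in sgNTC. The groups overlapped in both genes, and Lrp1 was lower in sgp53 in line 2 alone. Reads of Eno1 may be shared with near-identical copies, so its value is uncertain.

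Of 6 tested partners and substrates of matriptase, 0 were called, with a median log2 fold change of -0.31. F2rl1, the receptor PAR2 that matriptase can activate, averaged 112 ± 38.0 CPM in sgp53 and 141 ± 28.1 CPM in sgNTC cells (SD, n = 3 each). Met, the receptor of hepatocyte growth factor, whose precursor matriptase can cut, averaged 73.8 ± 11.7 CPM in sgp53 and 90.4 ± 4.55 CPM in sgNTC cells (SD, n = 3 each). Met did not overlap between the groups, and its log2 fold change was -0.29 (SE 0.12, edgeR adjusted p = 0.168). None of 14 other transmembrane serine proteases, such as hepsin (Hpn) and Tmprss2, had enough counts to be tested. Their counts summed to between 0.239 and 0.491 CPM in sgp53 and between 0.326 and 0.451 CPM in sgNTC libraries, where St14 alone had 1.68 CPM or more in each library. DESeq2 called Mrc2 and Serping1 higher and Epcam lower; these 3 are named after their values were seen.

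**Figure D4:**
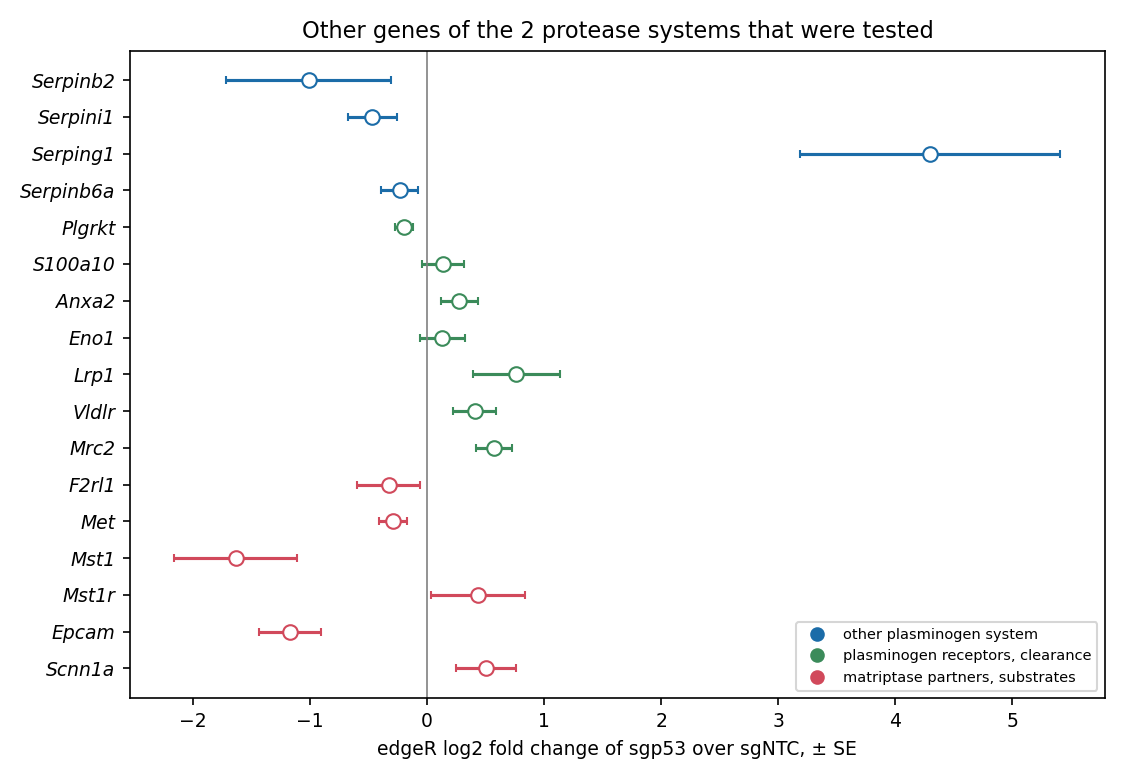
EdgeR log2 fold change of sgp53 over sgNTC with its SE for the 17 tested genes of the related lists, coloured by list. All circles are open, as no gene shown passed an adjusted p of 0.05, and Serping1, at 4.30, lies furthest from 0 with a wide SE of 1.11.

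Cells of the blood and vessel wall also make urokinase and its receptor, so their markers were read as well. Of the 8 macrophage markers, Ptprc had at most 2 counts in any library and Tyrobp and Emr1 had 0. Csf1r had 48 counts in sgNTC line 1, against 2 in each other sgNTC library and 5 to 11 in sgp53 libraries. Cd68, a lysosomal protein that fibroblasts also express, was the only one tested; it fell to 3.68 ± 0.212 CPM in sgp53, against 9.23 ± 1.58 CPM in sgNTC cells (SD, n = 3 each; edgeR adjusted p = 0.0152). The summed level of the list was 3.93 to 4.39 CPM in sgp53 and 9.05 to 10.5 CPM in sgNTC libraries, and Cd68 made up most of each sum. Of the 6 endothelial markers, Kdr alone had enough counts to be tested, with 1.42 ± 0.0720 CPM in sgp53, against 1.87 ± 0.366 CPM in sgNTC cells (SD, n = 3 each; edgeR adjusted p = 0.311). Its groups did not overlap. Pecam1 had at most 8 counts and Cdh5 at most 7 in any library, and the list summed to 1.67 to 1.84 CPM in sgp53 and 1.96 to 2.68 CPM in sgNTC libraries.

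Of 9 tested fibroblast markers, the collagen genes Col1a1 and Col1a2 were higher in sgp53, 0 were lower and 7 did not pass the test. Col1a1 rose to 459 ± 265 CPM in sgp53, against 8.90 ± 3.72 CPM in sgNTC cells (SD, n = 3 each; log2 fold change 5.68, edgeR adjusted p = 0.00728). Col1a2 rose to 218, 182 and 787 CPM in sgp53 lines 1, 2 and 3, against 18.3, 6.30 and 8.26 CPM in sgNTC (log2 fold change 5.16, edgeR adjusted p = 0.0210). The log2 fold change was above 0 in 8 of the 9, all but Vim (-0.22), and its median was 3.38, against -0.01 over all genes tested. That median is the value of Dcn, which had 8.35 CPM in sgp53 line 3, against 0.444 and 0.639 in lines 1 and 2. Pdgfra, Thy1 and S100a4 were also far higher in line 3 than in the other sgp53 lines. In line 2, Pdgfra and Thy1 were lower in sgp53 (log2 difference -0.49 and -0.27). The 10 markers summed to 7215, 6890 and 9367 CPM in sgp53 lines 1, 2 and 3, against 6243, 5536 and 6607 CPM in sgNTC, and Vim and Fn1 made up most of each sum. The sgp53 library of line 3, which had the least St14, Spint1 and Spint2, thus had the highest sum of fibroblast markers and the lowest sum of epithelial markers. The part of this library's make-up, and of the fibroblast markers, in the members' values was not tested. Without this library the log2 fold change was -3.78 for St14, -0.75 for Spint1 and -0.79 for Spint2. Among sgNTC libraries, line 3 likewise had the highest sum of fibroblast markers (6607 CPM) and the lowest sum of epithelial markers (317 CPM). In that sgNTC library, however, Spint1 was the highest of the sgNTC lines (72.4 CPM). Its St14 (58.9 CPM) and Spint2 (45.6 CPM) lay between those of the other sgNTC lines.

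The genes whose log2 CPM followed each member most closely over the 6 libraries were picked among 12053 other tested genes with a mean of at least 1 CPM. For St14 they were Tbk1 (Pearson r 0.999) and Jazf1 (0.998), and for Spint1 they were Slc4a2 (0.999) and Pex13 (0.997). For Spint2 they were Sgk3 (0.999) and Mfsd6 (0.998), and for Plau Xrcc1 (0.998) and Ercc1 (0.986). For Plaur they were Bbip1 (0.998) and Fetub (0.996), for Serpine2 Klhdc8b (0.995) and Pfkfb1 (0.990), and for Plat Atp2b4 (0.993) and Pkp1 (0.991). The measure sees the shape and not the size: Tbk1 averaged 55.5 ± 2.01 CPM in sgp53 and 65.0 ± 1.00 CPM in sgNTC cells, where St14 differed many times over (SD, n = 3 each). With 6 libraries, picking the 2 closest of 12053 genes gives high values, also for Plat, whose groups overlapped. Separating the groups is not enough for values this high, as Plaur and Spint2 both did so and had a Pearson r of 0.753. These values are descriptions.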

How the data were processed

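The authors deposited whole-number counts of reads for each gene symbol, with a column for every library. CASAVA 1.8, STAR, DESeq2 and the build mm10 appear in the submitters' processing notes, without their roles. Which program counted the reads, with what annotation and strand setting, is not given in the sources used here. Counts were tested by edgeR 4.0.16 (quasi-likelihood, R 4.3.3) after TMM scaling and filterByExpr, which left 13044 genes, with Benjamini-Hochberg adjustment over all of them. The code was tested on simulated data. Within-line differences are of log2 CPM with a prior count of 2. Alternatives were a block on the line, RLE scaling, DESeq2 1.42.0, limma-voom (limma 3.58.1), no filter, and leaving out each library or line.

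Libraries of the same line number are paired, because the titles name the same line for both guides. Within such pairs, deviations from the group mean had correlations of 0.0893, 0.00177 and -0.0272 in lines 1, 2 and 3. Replicates differed by more than sampling noise (chi-square per degree of freedom 21.8 to 58.0). P-values measure the spread between these libraries.

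The members and lists were chosen with earlier results of these data known. Named genes were the members, 3 genes that check the guide, up to 4 called genes per related list (or, with none called, the 2 of highest CPM), and the 2 genes most correlated with each member; 1 gene of the related lists is not reported here, and others are said to be named after their values were seen. Markers are named from fixed lists. Emr1 is the older symbol of Adgre1.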

Additional observations from a re-analysis of the deposited data

Results flagged for a closer look

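The difference between sgp53 and sgNTC cells was at least 0.25 in log2 CPM in both directions, in different lines, for Plat and for Lrp1, among 13 genes looked at. In Plat the log2 CPM difference was -0.31 in line 1, against 0.90 in line 2 and 0.70 in line 3. In Lrp1 it was 0.81 in line 1 and 1.69 in line 3, against -0.31 in line 2. Serpinb6a (-0.20, -0.56 and 0.06 in lines 1, 2 and 3) and F2rl1 (0.06, -0.01 and -1.16) also had both signs, with less than 0.25 on one side. The 13 did not include every tested gene of the related lists. Serpinb2, outside the 13 and named after its values were seen, had -1.83, -0.40 and 0.67 in lines 1, 2 and 3. Its level was low, with means of 1.44 CPM in sgp53 and 2.89 CPM in sgNTC cells. With 1 library per guide in each line, the difference between lines was not tested.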

How the results depend on the processing

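The log2 fold changes of all 7 members kept their sign in all 14 alternatives and moved by less than the SD of their within-line differences. Their ranges were -4.63 to -3.78 for St14, -3.62 to -2.74 for Serpine2, -1.07 to -0.63 for Spint1, -1.29 to -0.77 for Spint2, -0.88 to -0.60 for Plau, -0.71 to -0.46 for Plaur and 0.17 to 0.78 for Plat. No member passed the test between lines in any of its 10 alternatives. Apart from the likelihood ratio test in DESeq2, with 79 genes called, each of these alternatives called 0 of all genes. They therefore cannot show whether the members differ between lines. Over all genes, 360 were called higher and 481 lower. The replicate block on the line gave 126 and 185, DESeq2 gave 1190 and 1192, and leaving out a library or a line gave 4 to 251 and 15 to 449; fewer libraries were fitted there. The paired fit called St14 and Serpine2 and did not call Plau, Plaur or Spint1. Of the 14 alternatives, 10 called St14, 7 Plau, 6 Serpine2, 6 Plaur, 5 Spint1, 2 Spint2 and 0 Plat. Limma-voom did not call Serpine2. Serpine2 was also not called without any 1 of the sgp53 libraries, without sgNTC line 3 or without both libraries of any line. St14 was not called without sgp53 line 1 or without both libraries of any line. As the contrast was in view when the members were chosen, nothing is read from these calls. Of the related genes, DESeq2 called 2 higher and 1 lower, and leaving out a library or a line gave 0 higher and 0 to 1 lower (Epcam, without sgNTC line 1, edgeR adjusted p = 0.0409). The cause of these shifts was not tested. St14 rests on 48 to 227 counts per sgp53 library, so its level there is the least precise.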
